A study of Mus musculus with 8 samples.

Results

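Genes of smooth muscle contraction and of its transcriptional control by SRF and the MRTF coactivators were followed in mouse kidney cells labelled as Suv39h1 knockdown and in their controls. The set was drawn up by gene symbol, with earlier results of these data known. It held 35 of the 22322 genes in the deposited table. These were transgelins, calponins, tropomyosins, tropomodulins, myosin chains, actin-associated proteins, regulators of myosin phosphorylation, and SRF with its coactivators. Actin genes were left out. All 35 were found, and 32 had enough counts to be tested.

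The cells were labelled as primary renal fibroblasts. In 4 samples they had received an adenovirus that carries the recombinase Cre (Ad-Cre; genotype given as suv39h1 knockdown), and in 4 an adenovirus carrying GFP (Ad-GFP; genotype given as WT). TGF-β was given to all 8 samples (5 ng/ml, 48 hours), so no unstimulated level was available. The age, sex and strain of the mice are not given in the labels, and nothing says whether replicates are separate cultures or animals. The p-values therefore reflect only how far these samples differ from each other, which may be technical spread.

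SRF is a transcription factor that binds a short A/T-rich element, the CArG box, near genes of the contractile apparatus. The coactivators MRTF-A, MRTF-B and myocardin act together with SRF at these genes. MRTFs are held in the cytoplasm by monomeric actin and enter the nucleus when actin polymerises, which is one route by which TGF-β turns fibroblasts into contractile myofibroblasts. Force in such cells comes from myosin II on actin filaments, switched on by phosphorylation of the regulatory light chain and switched off by myosin phosphatase.

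Suv39h1 encodes a histone H3 lysine methyltransferase of heterochromatin and lies on the minus strand of chromosome X at 8061171 to 8074760 (GRCm38). It was at 25.3, 22.8, 21.6 and 22.6 CPM (counts scaled to a common library total) in Ad-Cre and 29.0, 27.8, 29.3 and 29.6 CPM in Ad-GFP. All Ad-Cre libraries were below all Ad-GFP libraries, yet the fall was small (log2 fold change -0.33; edgeR adjusted p = 3.293e-05), and it did not pass a test against a fold of 1.2 (adjusted p = 0.3258). Whether the counted reads cover a deleted part of the gene was not tested. The exons of Suv39h1 also overlap those of the antisense gene Gm14820 over 767 bases, and the strand setting of the counting was not given. Against the label, epithelial markers summed to 2162 to 2190 FPKM (a level per gene length) in Ad-Cre and 2471 to 2596 FPKM in Ad-GFP, above the fibroblast markers at 63.8 to 75.6 FPKM in Ad-Cre and 99.8 to 108.3 FPKM in Ad-GFP. In such bulk samples, fewer cells of a type and less RNA per cell cannot be told apart.

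The members past the test with the largest falls in Ad-Cre were Myl9, Cnn1, Tpm2, Myh11 and Lmod1, at 50.7% to 60.3% of their Ad-GFP level. Of their relatives in the set, Myl12a, Tpm3 and Myh9 did not pass the test. Cnn2, Cnn3, Tpm4, Myh10 and Myh14 fell by less, to 76.0% to 94.7% of their Ad-GFP level, and Myl12b and Tpm1 rose. Of the 32 tested members, 23 changed by edgeR's quasi-likelihood test with an adjusted p under 0.05 (71.9%, against 40.3% of the 13337 tested genes). Of these, 19 fell (59.4% of members, against 20.5% of all tested genes) and 4 rose (12.5%, against 19.8%). The members were chosen with earlier results of these data known, so these shares are not an independent test of the set. The 4 rises were the myosin light chain kinase gene Mylk, the smoothelin gene Smtn, Myl12b and Tpm1. The middle log2 fold change (median) of the tested members was -0.15, against 0.00 for all tested genes, and single members ranged from -0.98 for Myl9 to 0.54 for Mylk.

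Most changes were small. Of the 32, 5 fell at least 1.5-fold (15.6%, against 5.47% of all tested genes) and 0 rose by as much (against 0.772%). The groups did not overlap in 19 members that were lower in Ad-Cre (18.2% of all tested genes) and in 4 that were higher (17.2%). Libraries held 18006938 to 23940043 counts in Ad-Cre and 15879244 to 17930632 counts in Ad-GFP. Every Ad-Cre library was deeper, and with all libraries thinned to the smallest total 19 members fell and 4 rose.

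**Figure D1:**
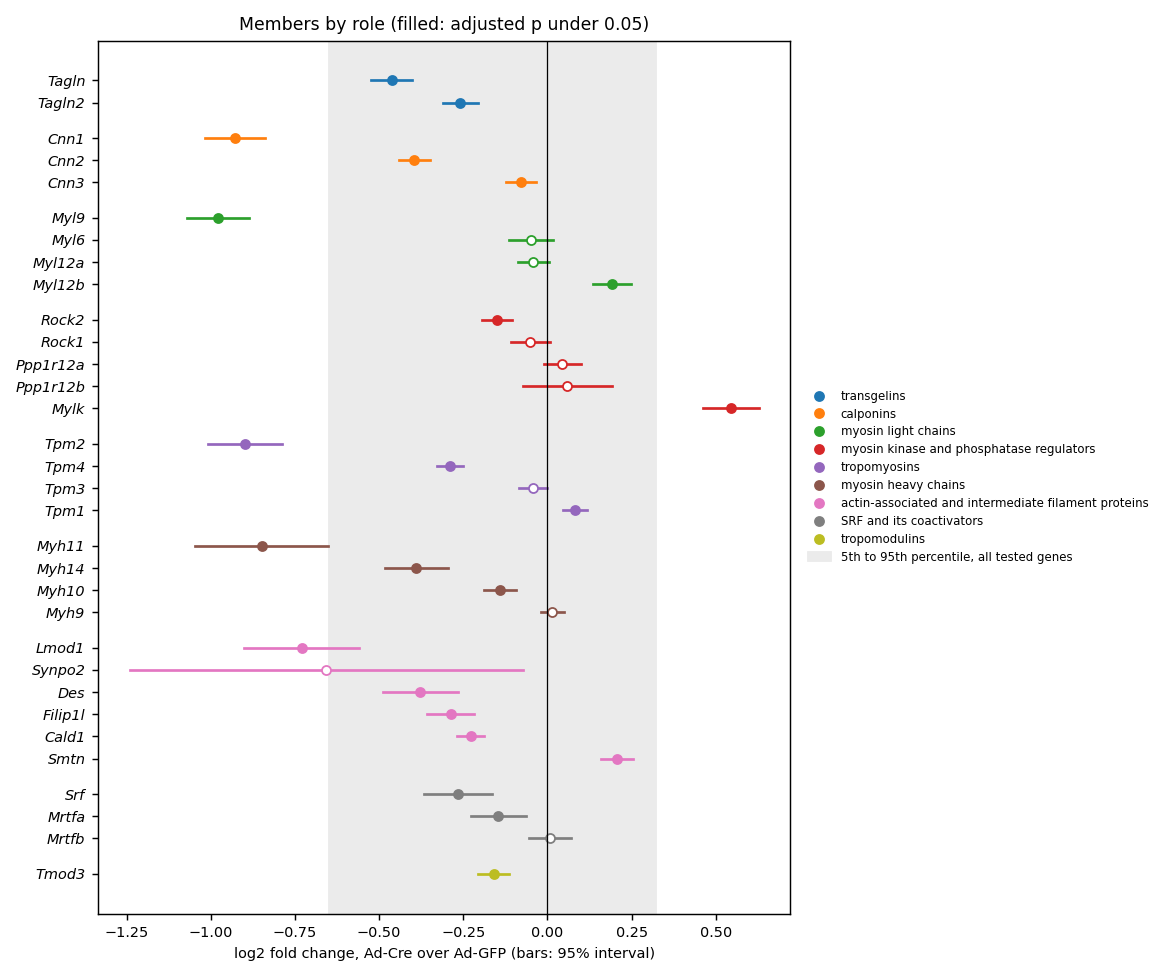
Log2 fold change of each tested member, Ad-Cre over Ad-GFP, grouped by role, with its 95% interval; filled points have an adjusted p under 0.05 and the grey band spans the 5th to 95th percentile of all tested genes. 6 members lie below the band, of which Synpo2 did not pass the test, and Mylk alone lies above it.

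CArG boxes were looked up in the promoters of the members, since SRF binds them. RefSeq promoter windows (GRCm38.p6), reaching from 250 bases before to 50 bases after an annotated start, were found for 30 of the 35 members. Tagln, Myh11, Tmod3, Rock1 and Myocd had no window. A perfect CArG box, on either strand, lay in 5 of these 30 genes (16.7%), against 1.81% of the 27025 genes with a window. By window the shares were 13.2% of 38 and 1.63% of 32851. Contractile genes are well-known SRF targets, so this match is a property of the list. The stretches around the boxes are shown 5′ to 3′ on the gene's strand, with the box in capitals.

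Myl9: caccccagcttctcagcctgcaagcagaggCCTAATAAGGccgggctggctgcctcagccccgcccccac
Cnn2: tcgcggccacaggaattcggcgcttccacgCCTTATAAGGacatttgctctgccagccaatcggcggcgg
Filip1l: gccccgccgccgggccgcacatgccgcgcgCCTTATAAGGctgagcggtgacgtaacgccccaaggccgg
Srf: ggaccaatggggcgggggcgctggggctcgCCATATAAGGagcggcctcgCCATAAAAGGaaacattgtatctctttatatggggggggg
Myl6: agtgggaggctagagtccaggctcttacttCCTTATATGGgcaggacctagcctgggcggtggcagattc

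These stretches lie at chr2:156775273-156775342 for Myl9, chr10:79988514-79988583 for Cnn2, chr16:57549150-57549219 for Filip1l, chr17:46556185-46556274 (minus strand) for Srf and chr10:128493020-128493089 (minus strand) for Myl6. The box begins 161 bases before the start of Myl9, 56 before Cnn2, 62 before Filip1l and 50 before Myl6. These RefSeq starts, and that of Srf, lie inside the genes as annotated by GENCODE, so the distances are not from the GENCODE gene starts. The starts of Filip1l and Myl6 lie further inside than the others, and each of these genes has 2 promoter windows in RefSeq. Srf carries 2 boxes, beginning 82 and 62 bases before its start. Of these 5 genes, 4 fell in Ad-Cre, whereas Myl6 did not pass the test. Among all tested members 59.4% fell, and among all tested genes 20.5%. A link between the box and the falls was not tested. Cnn1, Tpm2 and Lmod1, which fell more than Cnn2, Filip1l and Srf, had no perfect box in this window, and neither did the 4 members that rose.

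Srf, the transcription factor itself, fell modestly. It was at 37.1, 36.8, 36.3 and 36.7 CPM in Ad-Cre and at 42.9, 40.7, 48.4 and 44.7 CPM in Ad-GFP. The Ad-Cre libraries were close together and all below the Ad-GFP libraries, at 83.2% of Ad-GFP (log2 fold change -0.27 ± 0.049, SE, n = 4 per group; edgeR adjusted p = 9.888e-05). Mrtfa, encoding the coactivator MRTF-A, was at 65.1, 61.0, 61.9 and 60.9 CPM in Ad-Cre and 64.0, 68.4, 72.8 and 69.8 CPM in Ad-GFP. It fell to 90.4% (adjusted p = 0.004717), although Ad-Cre replicate 1 lay above Ad-GFP replicate 1.

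Mrtfb, encoding MRTF-B, was at 116, 114, 122 and 112 CPM in Ad-Cre and 115, 114, 118 and 115 CPM in Ad-GFP. The groups overlapped and the difference did not pass the test (100.5% of Ad-GFP, 95% interval 96.3% to 105.0%; adjusted p = 0.8657). Myocd, encoding the muscle coactivator myocardin, was almost undetected: 3, 2, 4 and 2 counts in Ad-Cre and 11, 1, 3 and 3 counts in Ad-GFP. It did not pass the filter on low counts and was not tested.

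The calponins showed a graded pattern. Calponins bind actin filaments, and calponin 1, encoded by Cnn1, is the form typical of differentiated smooth muscle. Cnn1 (chromosome 9, 22099216 to 22109630) was at 33.0, 38.1, 35.9 and 35.7 CPM in Ad-Cre and 66.7, 70.8, 66.7 and 68.1 CPM in Ad-GFP. Every Ad-Cre library was far below every Ad-GFP library, at 52.6% of Ad-GFP (log2 fold change -0.93 ± 0.044, SE; adjusted p = 5.699e-15). Cnn2, a more widely expressed calponin, was at 317, 324, 322 and 329 CPM in Ad-Cre and 419, 436, 417 and 428 CPM in Ad-GFP, and fell to 76.0% (adjusted p = 1.5e-13). Cnn3, also outside muscle, fell only to 94.7% (473 ± 8.5 CPM in Ad-Cre and 499 ± 9.0 CPM in Ad-GFP, SD, n = 4; adjusted p = 0.004231). Per length, Cnn3 was the most abundant of the 3, and its share of the summed calponin FPKM was 58.7% ± 1.0 in Ad-Cre and 52.1% ± 0.39 in Ad-GFP (SD, n = 4), while the share of Cnn1 was 6.66% ± 0.21 in Ad-Cre and 10.3% ± 0.13 in Ad-GFP.

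Both transgelins fell. Tagln encodes SM22α, an actin-binding protein widely used as an early smooth muscle and myofibroblast marker, and was at 265, 294, 272 and 293 CPM in Ad-Cre and 399, 395, 380 and 375 CPM in Ad-GFP. Its level was 72.6% of Ad-GFP (log2 fold change -0.46 ± 0.030, SE; adjusted p = 2.548e-12), with no overlap between the groups. Its exons overlap those of the antisense gene Gm48529 over 1241 bases. The strand setting of the counting was not given in the sources used here, so reads of such pairs cannot be told apart. Tagln2, the form found outside muscle, was at 299 ± 3.2 CPM in Ad-Cre and 358 ± 13.6 CPM in Ad-GFP (SD, n = 4), 83.6% of Ad-GFP (adjusted p = 5.105e-09).

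**Figure D2:**
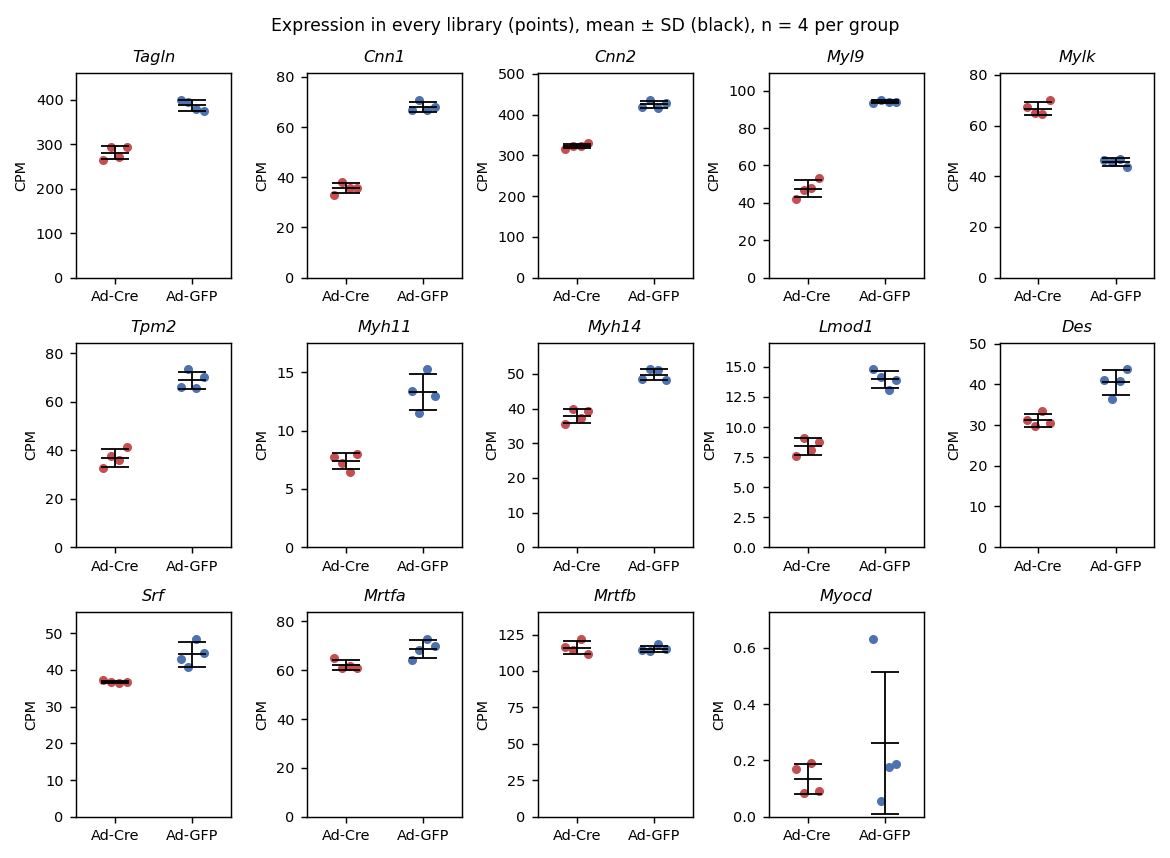
CPM of 14 members in every library (points) with mean ± SD (black), n = 4 per group, on vertical axes that start at 0. The groups are apart for the 11 panels from Tagln to Srf, close together for Mrtfa and Mrtfb, and near 0 for Myocd.

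Tropomyosins are coiled coils that lie along actin filaments and decide which myosins reach them. Tpm2, the β-tropomyosin gene prominent in muscle, was at 32.5, 37.4, 35.9 and 41.3 CPM in Ad-Cre and 66.0, 73.3, 65.8 and 70.2 CPM in Ad-GFP. All Ad-Cre libraries were below all Ad-GFP libraries, at 53.6% of Ad-GFP (log2 fold change -0.90 ± 0.053, SE; adjusted p = 4.365e-13). Tpm4 fell to 81.8% (813 ± 13.5 CPM in Ad-Cre and 995 ± 9.4 CPM in Ad-GFP, SD, n = 4; adjusted p = 2.691e-12).

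Tpm1 was by far the most abundant tropomyosin per length, and it rose slightly to 105.9% (2558 ± 57 CPM in Ad-Cre and 2417 ± 33 CPM in Ad-GFP, SD, n = 4; adjusted p = 6.191e-04). Tpm3 was at 97.0% and did not pass the test (adjusted p = 0.09349), although its groups did not overlap. It also shares 23.2% of its annotated 50-base words with Tpm3-rs7, so the split of reads between them is uncertain. The summed tropomyosin level differed little, at 2059 ± 42 FPKM in Ad-Cre and 2127 ± 20 FPKM in Ad-GFP (SD, n = 4). Tpm1 held 69.5% ± 0.15 of that sum in Ad-Cre and 64.4% ± 0.29 in Ad-GFP. Tpm4 held 18.2% ± 0.22 in Ad-Cre and 21.8% ± 0.09 in Ad-GFP, and Tpm2 1.49% ± 0.12 in Ad-Cre and 2.72% ± 0.13 in Ad-GFP. Each of these genes makes several splice forms, which the table sums.

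Tropomodulins cap the pointed ends of actin filaments. Tmod3, the broadly expressed form, fell to 89.5% (240 ± 2.2 CPM in Ad-Cre and 268 ± 3.2 CPM in Ad-GFP, SD, n = 4; adjusted p = 2.601e-06). Tmod1, the form of muscle and red cells, held 4 to 13 counts in Ad-Cre libraries and 1 to 6 in Ad-GFP libraries and was not tested. Its exons overlap those of Tstd2 on the other strand over 1287 bases.

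Among the myosin heavy chains, the 2 scarce forms fell most and the dominant one did not pass the test. Myh11 encodes the smooth muscle heavy chain, a marker of mature smooth muscle, and was at 7.78, 7.23, 6.49 and 8.02 CPM in Ad-Cre and 13.4, 11.5, 15.2 and 13.0 CPM in Ad-GFP. The groups did not overlap, and the level in Ad-Cre was 55.5% of Ad-GFP (log2 fold change -0.85 ± 0.096, SE; adjusted p = 8.361e-08). It made up only 0.25% ± 0.02 of summed heavy chain FPKM in Ad-Cre and 0.44% ± 0.05 in Ad-GFP (SD, n = 4).

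Myh14, encoding nonmuscle myosin IIC, was at 35.4, 39.8, 37.2 and 39.2 CPM in Ad-Cre and 48.6, 51.3, 51.0 and 48.1 CPM in Ad-GFP. It fell to 76.3% without overlap (adjusted p = 1.292e-07). Myh10, for nonmuscle myosin IIB, fell to 90.7% (342 ± 8.0 CPM in Ad-Cre and 376 ± 7.2 CPM in Ad-GFP; adjusted p = 2.294e-05). Myh9, for nonmuscle myosin IIA, held 88.1% ± 0.17 of heavy chain FPKM in Ad-Cre and 86.3% ± 0.37 in Ad-GFP. Its level was 101.0% of Ad-GFP (95% interval 98.7% to 103.4%; adjusted p = 0.5118).

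The regulatory light chains diverged. Myl9 encodes the smooth muscle-type chain and had the largest fall of the tested members. It was at 42.2, 47.1, 47.7 and 53.1 CPM in Ad-Cre and 93.3, 95.02, 93.7 and 94.0 CPM in Ad-GFP. The Ad-GFP libraries lay within a narrow range and the highest Ad-Cre library was far below it, at 50.7% of Ad-GFP overall (95% interval 47.6% to 54.1%; log2 fold change -0.98 ± 0.045, SE; adjusted p = 4.111e-15). Its gene is on chromosome 2 at 156775420 to 156781658, just after the promoter stretch shown above.

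Myl12a and Myl12b, neighbouring genes on chromosome 17, encode the nonmuscle regulatory chains. Myl12b rose to 114.2% (234 ± 2.8 CPM in Ad-Cre and 205 ± 9.4 CPM in Ad-GFP, SD, n = 4; adjusted p = 4.304e-06), and Myl12a was at 97.1% (95% interval 94.0% to 100.3%; adjusted p = 0.1438). A further annotated gene, also named Myl12b, overlaps exons of Myl12a over 462 bases and exons of Myl12b over 739 bases on the same strand. Transcripts of other genes hold 16.4% of the 50-base words of Myl12a, nearly all of them shared with genes named Myl12b, and 25.4% of those of Myl12b, so the counts of both are uncertain. Myl9 has no shared word. Myl9 held 7.73% ± 0.74 of the summed regulatory light chain FPKM in Ad-Cre and 14.3% ± 0.23 in Ad-GFP, and the sum was 541 ± 7.7 FPKM in Ad-Cre and 589 ± 13.8 FPKM in Ad-GFP (SD, n = 4). Myl6, for the essential light chain, was at 96.7% (95% interval 92.5% to 101.1%; adjusted p = 0.227), and without Ad-GFP replicate 4, its lowest Ad-GFP library, it passed as lower (adjusted p = 0.04193).

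**Figure D3:**
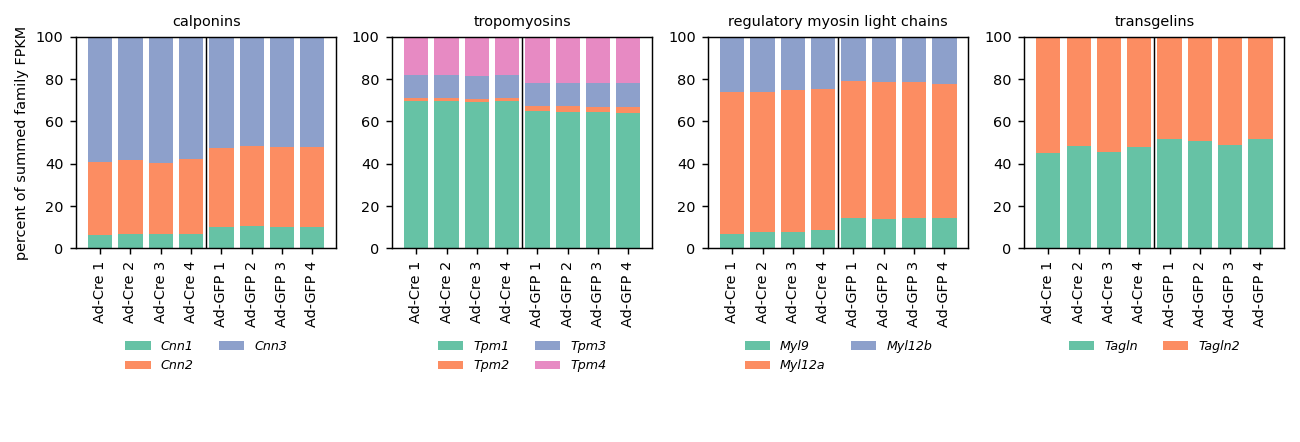
Share of each gene in the summed FPKM of its family, in percent, in each of the 8 libraries, with Ad-Cre left of the line and Ad-GFP right of it. Cnn1, Cnn2, Tpm2, Tpm4, Myl9 and Tagln take smaller shares in every Ad-Cre library than in any Ad-GFP library. Cnn3, Tpm1, Myl12a, Myl12b and Tagln2 take larger ones.

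Of the 5 tested genes of the kinases and phosphatase that set light chain phosphorylation, 1 rose and 1 fell. These counts are near the shares of all tested genes (19.8% higher, 20.5% lower). Mylk encodes myosin light chain kinase, which activates smooth muscle myosin, and was at 67.2, 64.8, 64.4 and 70.1 CPM in Ad-Cre and 46.5, 45.6, 46.8 and 43.6 CPM in Ad-GFP. Each Ad-Cre library was above each Ad-GFP library, at 145.9% of Ad-GFP (log2 fold change 0.54 ± 0.040, SE; adjusted p = 3.731e-11). By the deposited FPKM the difference was smaller, 8.97 ± 0.42 in Ad-Cre and 6.76 ± 0.22 in Ad-GFP (SD, n = 4), a log2 ratio of 0.41. The gene length implied by counts and FPKM together was 7374 ± 101 bases in Ad-Cre and 6794 ± 113 bases in Ad-GFP, with no overlap (log2 ratio 0.12). Of 9240 genes with enough counts, 409 shifted by more than 0.1 in this log2 ratio. The implied length of Cnn1 also had no overlap, at 1358 ± 16 bases in Ad-Cre and 1410 ± 20 bases in Ad-GFP. The locus gives rise to a long and a short kinase and to telokin, which the table does not separate, and 2 antisense genes overlap its exons over 548 and 224 bases.

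Rock2, one of the kinases that inhibit myosin phosphatase, fell to 90.2% (470 ± 11.1 CPM in Ad-Cre and 521 ± 5.2 CPM in Ad-GFP, SD, n = 4; adjusted p = 3.06e-06). Its relative Rock1 was at 96.5% (95% interval 92.7% to 100.5%; adjusted p = 0.1533). The phosphatase targeting subunits Ppp1r12a and Ppp1r12b were at 103.1% (interval 99.2% to 107.1%) and 104.2% (95.2% to 114.1%), and neither passed the test (adjusted p = 0.2059 and 0.4849). Ppp1r14a, encoding the smooth muscle phosphatase inhibitor CPI-17, held 5 to 17 counts in Ad-Cre libraries and 7 to 17 in Ad-GFP libraries and was not tested.

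The actin-associated and intermediate filament proteins were mixed. Lmod1, encoding leiomodin 1, the actin filament nucleator of smooth muscle, was at 7.55, 9.13, 8.07 and 8.79 CPM in Ad-Cre and 14.8, 14.2, 13.1 and 13.9 CPM in Ad-GFP. It fell to 60.3% without overlap (log2 fold change -0.73 ± 0.083, SE; adjusted p = 9.234e-08). Des, encoding the muscle intermediate filament protein desmin, was at 31.1, 29.6, 33.4 and 30.4 CPM in Ad-Cre and 41.0, 36.4, 40.8 and 43.6 CPM in Ad-GFP, and fell to 77.0% (adjusted p = 3.472e-06), also without overlap.

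Cald1, for caldesmon, which restrains actomyosin, fell to 85.4% (1057 ± 17 CPM in Ad-Cre and 1238 ± 28 CPM in Ad-GFP, SD, n = 4; adjusted p = 6.167e-10). Filip1l, related to a filamin-interacting protein, fell to 81.9% (140 ± 6.1 CPM in Ad-Cre and 171 ± 8.4 CPM in Ad-GFP; adjusted p = 1.585e-07). Smtn, encoding smoothelin, found in contractile smooth muscle, went the other way, with 597 ± 20 CPM in Ad-Cre and 518 ± 8.5 CPM in Ad-GFP, 115.4% of Ad-GFP (adjusted p = 6.966e-08). Its exons overlap those of Gm11946 on the other strand over 714 bases. Synpo2, for the Z-disc protein myopodin, was near the detection limit at 0.77 ± 0.27 CPM in Ad-Cre and 1.24 ± 0.26 CPM in Ad-GFP and did not pass the test (63.4%, 95% interval 42.3% to 95.05%; adjusted p = 0.06713), but passed as lower without Ad-Cre replicate 2 (adjusted p = 0.03284) or Ad-GFP replicate 2 (adjusted p = 0.04268).

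**Figure D4:**
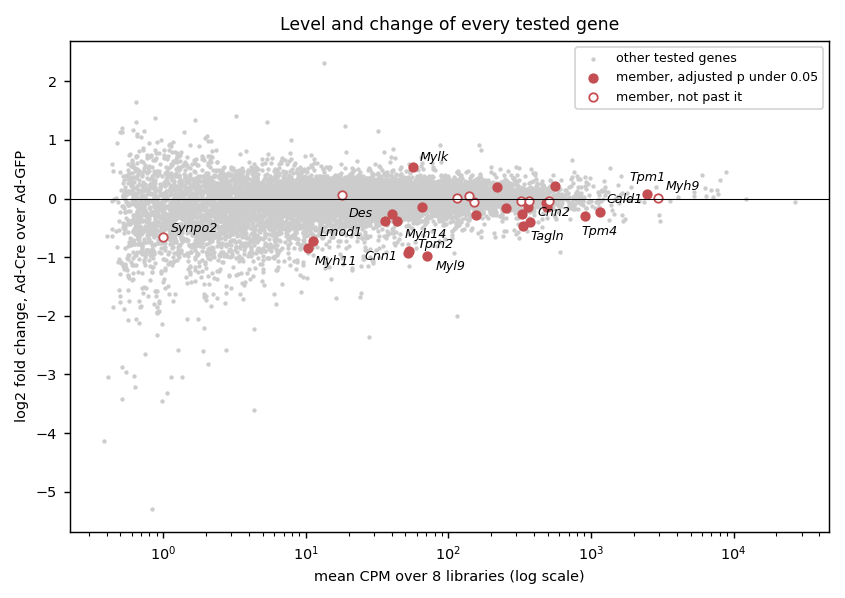
Log2 fold change, Ad-Cre over Ad-GFP, against mean CPM over the 8 libraries (log scale) for every tested gene, with the members in red (filled: adjusted p under 0.05). The members of highest mean CPM, Tpm1 and Myh9, lie near 0, and the members with the largest falls, Myl9, Cnn1, Tpm2, Myh11 and Lmod1, lie at lower mean CPM.

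Genes around this set were counted from lists of other pathway members, which were also chosen with earlier results of these data known. Of 30 cytoskeletal genes known as MRTF-SRF targets, all of them tested, 26 were called lower and 1 higher (median log2 fold change -0.20), where 20.5% of all tested genes were lower and 19.8% higher. Beyond a fold of 1.2, 8 of the 30 were lower, against 5.60% of all tested genes. Pdlim5, a PDZ-LIM scaffold of actin filaments, fell to 67.2% (246 ± 10.0 CPM in Ad-Cre and 366 ± 8.0 CPM in Ad-GFP, SD, n = 4; adjusted p = 5.321e-15). The LIM-domain gene Fhl1 fell to 65.7% (adjusted p = 3.7e-14). The 1 rise, Ccn1, was small (log2 fold change 0.06; adjusted p = 0.03571) and was lost under upper-quartile scaling and on leaving out any of 6 of the 8 libraries. It and the other genes named here as the few in one direction were picked after their values were seen.

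SRF also serves immediate early genes through the ternary complex factors. Of 11 tested, 1 fell and 3 rose (median log2 fold change 0.04), which is near the shares of all tested genes (20.5% lower, 19.8% higher). Beyond a fold of 1.2, 1 was lower and 1 was higher. Egr1, an early growth response factor, was at 17.1 ± 1.3 CPM in Ad-Cre and 11.8 ± 1.1 CPM in Ad-GFP (145.0% of Ad-GFP; adjusted p = 4.209e-06). Btg2, an antiproliferative gene, rose to 114.5% (adjusted p = 1.987e-06) and Klf6 slightly (log2 fold change 0.07; adjusted p = 0.009371), whereas the orphan nuclear receptor gene Nr4a1 fell to 63.5% (adjusted p = 8.696e-05).

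Among 12 tested partners and repressors of SRF, 1 fell and 2 were called higher (median log2 fold change 0.02). These counts are not above the shares of all tested genes (20.5% lower, 19.8% higher). Klf4, a repressor of smooth muscle genes, fell to 86.1% (adjusted p = 0.01088). The ternary complex factor gene Elk3 and Tead1 were called higher, at 107.1% and 105.2% (adjusted p = 0.01374 and 0.02369). The groups overlapped for Tead1, and its FPKM were 37.2 ± 1.0 in Ad-Cre and 37.7 ± 1.5 in Ad-GFP (SD, n = 4). The calls in this list were weak: without Ad-GFP replicate 3, 0 of the list were lower. Without Ad-Cre replicate 4 or Ad-GFP replicate 1, and by limma on FPKM, 0 were higher, and without Ad-Cre replicate 1 or Ad-GFP replicate 2, 1 was higher.

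Of 18 other tested genes of smooth muscle, 10 fell and 5 rose (median log2 fold change -0.33), against 20.5% lower and 19.8% higher among all tested genes. The 10 falls became 4 beyond a fold of 1.2 and 4 by limma on FPKM, and 5 with the filter of at least 5 CPM. Itga8, Kcnmb1, Jph2, Ldb3 and Cacna1c, among the 10, were too low for that filter and for the FPKM fits and were not tested there. The 5 rises became 2 beyond a fold of 1.2. Vim, for the intermediate filament protein vimentin, fell to 66.3% (167 ± 7.7 CPM in Ad-Cre and 252 ± 5.7 CPM in Ad-GFP, SD, n = 4; adjusted p = 1.051e-14). The synaptopodin gene Synpo rose to 152.0% (78.4 ± 2.3 CPM in Ad-Cre and 51.6 ± 1.5 CPM in Ad-GFP; adjusted p = 7.308e-13) and the smoothelin-like gene Smtnl2 to 146.8% (adjusted p = 4.795e-09), followed by Pgm5, Sorbs3 and Npnt.

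Striated muscle myosins, troponins and related genes were mostly absent: 6 of 30 were tested, and Myl2, Myh2, Myh4, Myh6, Myh8, Lmod2 and Lmod3 held no count in any library. Of the 6, Tnnt2 fell to 58.8% (1.39 ± 0.11 CPM in Ad-Cre and 2.37 ± 0.53 CPM in Ad-GFP; adjusted p = 0.004009) and Tnni1 rose to 224.5% (0.852 ± 0.14 CPM in Ad-Cre and 0.379 ± 0.13 CPM in Ad-GFP; adjusted p = 0.007626). Both were at low levels. With 1 lower and 1 higher, these counts are near the shares of all tested genes (20.5% lower, 19.8% higher).

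**Figure D5:**
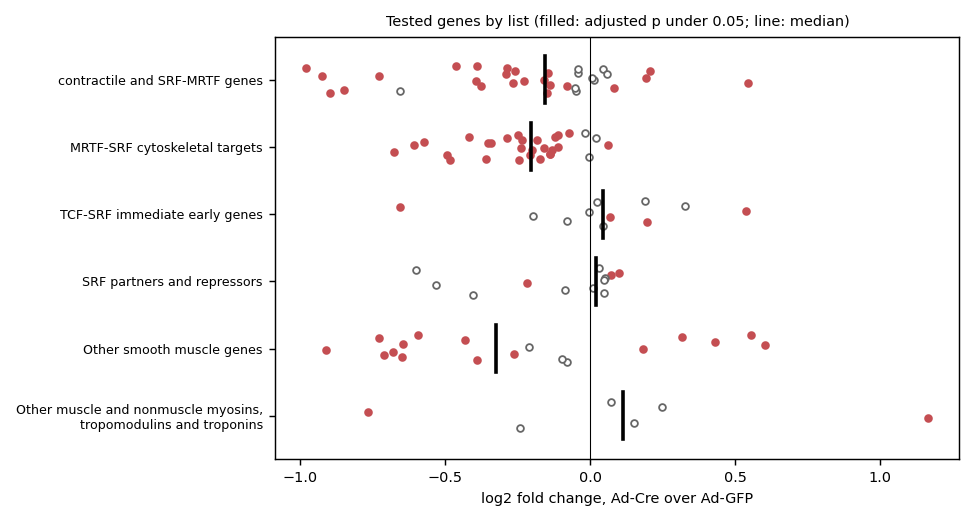
Log2 fold change, Ad-Cre over Ad-GFP, of every tested gene of the contractile and SRF-MRTF set and of 5 lists of other pathway genes (filled: adjusted p under 0.05; vertical line: median). The medians are -0.15 for the contractile set, -0.20 for MRTF-SRF cytoskeletal targets and 0.04 for immediate early genes.

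Markers of other cell types moved in the same samples. Beside the counts below, 20.5% of all tested genes were lower and 19.8% higher. The marker lists, too, were chosen with earlier results of these data known. Fibroblast markers summed to 321 to 375 CPM in Ad-Cre and 496 to 540 CPM in Ad-GFP, with 5 of 7 tested lower. The 2 with the highest CPM were Col1a1 (131 ± 10.0 CPM in Ad-Cre and 207 ± 11.1 CPM in Ad-GFP, SD, n = 4) and Col1a2 (130 ± 7.1 CPM in Ad-Cre and 194 ± 10.9 CPM in Ad-GFP). Among the fibroblast markers, Thy1 fell to the lowest share of Ad-GFP, at 21.5% (1.54 ± 0.42 CPM in Ad-Cre and 7.19 ± 0.43 CPM in Ad-GFP; adjusted p = 1.422e-11). Thy1 was named after its value was seen. Of the mural markers, which vascular smooth muscle and pericytes express, 2 of 5 tested fell (Mcam and Cspg4), the sum was 220 to 232 CPM in Ad-Cre and 242 to 251 CPM in Ad-GFP, and Notch3 was at 43.6 ± 0.85 CPM in Ad-Cre and 41.6 ± 2.0 CPM in Ad-GFP. Mesangial and renin markers summed to 28.2 to 33.4 CPM in Ad-Cre and 31.0 to 33.0 CPM in Ad-GFP. Gata3 gave most of those counts. Of the 4 tested, 2 were lower and 0 higher. These 2 were Itga8, at 0.873 CPM in Ad-Cre and 1.65 CPM in Ad-GFP, and Akr1b7. Akr1b7 was at 0.355 ± 0.077 CPM in Ad-Cre and 2.17 ± 0.53 CPM in Ad-GFP (16.7% of Ad-GFP; edgeR adjusted p = 4.87e-08).

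Endothelial markers were at 61.3 to 69.0 CPM in Ad-Cre and 121 to 129 CPM in Ad-GFP in sum. Of the 8 tested, 7 were lower, against 20.5% of all tested genes. The 7 included Cdh5 (19.0 ± 1.6 CPM in Ad-Cre and 39.4 ± 1.5 CPM in Ad-GFP) and Pecam1 (11.96 ± 0.49 CPM in Ad-Cre and 24.0 ± 1.7 CPM in Ad-GFP). Macrophage and leukocyte markers, with Lyz2 and Csf1r at the highest CPM, summed to 181 to 192 CPM in Ad-Cre and 201 to 228 CPM in Ad-GFP, with 5 of 6 lower. Epithelial markers, with Krt8 and Cldn4 at the highest CPM, stood at 4188 to 4244 CPM in Ad-Cre and 4679 to 4901 CPM in Ad-GFP, with 4 of 6 lower and Epcam higher. Skeletal and cardiac muscle markers summed to 4.88 to 6.25 CPM in Ad-Cre and 5.25 to 6.42 CPM in Ad-GFP, and Myod1 and Myog held no count. The part of the other cell types in the falls of the contractile genes was not tested.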

How the data were processed

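RNA was sequenced from 8 samples. The authors deposited whole-number read counts per gene and FPKM values of the same libraries, per the file headers, with no unmapped column of values. Their deposited log2 fold changes and p-values were not used here. GRCm38 and mm10 are the genome builds per the submitters' processing notes. The aligner, the counting tool and its strand setting were not given in the sources used here. Coordinates and exon overlaps are from GENCODE M21 (GRCm38), and promoters from RefSeq.

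Counts were analysed with edgeR 4.0.16 in R 4.3.3 (filterByExpr, TMM factors, quasi-likelihood F-test of Ad-Cre against Ad-GFP, two-sided, Benjamini-Hochberg adjustment over all 13337 tested genes, threshold 0.05). CPM are relative to TMM-scaled totals, SDs are computed within each group of 4, and SEs are the log2 fold change over the square root of F. Levels of different genes were compared by FPKM, except in marker sums given in CPM and the choice of markers of highest CPM, which are not corrected for length. Implied length is the library-scaled count divided by the FPKM. Shared sequence is the percent of 50-base words of a gene's transcripts found in another gene's. Replicate pairs differed beyond sampling noise (chi-square per degree of freedom 1.83 to 3.35). The fit was checked on simulated data.

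The members and lists were chosen with earlier results of these data known. Values in every library are given for members past the threshold with at least 5 CPM and an absolute log2 fold change of at least 0.3, and for Srf, Mrtfa, Mrtfb, Myocd, Myh11 and Suv39h1. From each pathway list the 3 called genes of smallest p are named, and from each cell type list the 2 of highest CPM. A list of regulators and a gene the rule names are not reported here. The alternatives were RLE and upper-quartile factors, other filters, DESeq2 1.42.0, limma-voom (limma 3.58.1), glmTreat against a fold of 1.2, a replicate block, leaving out each library, thinning, and limma on log2 FPKM with a pseudocount of 1 or 0.1. The fits on FPKM took only genes with a mean of at least 1 FPKM.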

Additional observations from a re-analysis of the deposited data

Results flagged for a closer look

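Of 64 groups of 4 libraries examined (32 members in each group), 5 held a library far from the other 3; chance flags about 1 in 20 groups. Myh10 was lowest in Ad-Cre replicate 2, at 330 CPM against 345 to 346 CPM in the other Ad-Cre libraries. Tmod3 was highest in Ad-Cre replicate 3, at 243 CPM against 239 CPM in the others. Myl6 was lowest in Ad-GFP replicate 4, at 308 CPM against 336 to 337 CPM. In Ad-GFP replicate 2, Rock1 was at 149 CPM against 154 to 155 CPM and Ppp1r12a at 133 CPM against 138 CPM in the other Ad-GFP libraries.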

How the results depend on the processing

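The counts of 19 members lower and 4 higher were the same with RLE factors, no filter on low counts, DESeq2, limma-voom and thinned libraries. Upper-quartile factors gave 22 and 4, the filter of at least 5 CPM 21 and 4, and limma on log2 FPKM with a pseudocount of 1 or 0.1 gave 20 and 4 each. No call of a member changed sign: of the values of single members under the alternatives, 581 kept their side, 10 passed only there and 14 were lost, all 14 with glmTreat, which also lost Suv39h1. That test asks for a change beyond a fold of 1.2 and left 8 members lower and 1 higher (Mylk), among 747 lower and 199 higher genes in all (946). The 8 were Tagln, Cnn1, Cnn2, Myl9, Tpm2, Myh11, Myh14 and Lmod1. In the other lists, glmTreat left 8 lower and 0 higher cytoskeletal targets, 1 lower and 1 higher immediate early gene, and 0 SRF partners in either direction. It also left 4 lower and 2 higher other smooth muscle genes, and 1 lower and 0 higher striated muscle genes.

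Limma on FPKM with those pseudocounts called 3530 and 3520 genes, 1400 and 1393 of them higher. Both gave 0 higher cytoskeletal targets, 0 higher SRF partners, 4 lower other smooth muscle genes and 0 higher striated muscle genes, and a median member log2 fold change of -0.17. Upper-quartile factors gave the same median and moved the median of all genes to -0.02, with 0 higher cytoskeletal targets and 2 lower and 1 higher SRF partners. The filter of at least 5 CPM gave those same 3 counts, 5 lower other smooth muscle genes, and 0 striated muscle genes in either direction. Thinning gave 2 lower SRF partners. Itga8, Kcnmb1, Jph2, Ldb3 and Cacna1c, called lower in the main fit, lay under the 5 CPM filter and under the FPKM filter. So did Tnni1, called higher, while Tnnt2 lay under the 5 CPM filter only. Genes under a filter were not tested in that fit, so their calls dropped out there. The cause of the other shifts was not tested.

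Leaving out each library in turn gave 4816 to 5084 called genes, 19 to 20 members lower, 4 higher, and a median member log2 fold change of -0.18 to -0.15. It gave 0 to 1 higher cytoskeletal targets, 0 to 2 lower and 0 to 2 higher SRF partners. The replicate numbers are not stated to pair the samples. Deviations of same-numbered libraries correlated at -0.01 to 0.10, and 2 of the 4 Ad-Cre libraries correlated best with their own number. The fit with a replicate block gave 5390 called genes, 19 members lower and 4 higher. With 1 to 17 counts per library, Myocd, Ppp1r14a and Tmod1 were too shallow to test.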
